A study of Mus musculus with 21 samples.

Results

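The constitutive proteasome genes were examined in RNA sequencing libraries of mouse uterus at 5 weeks, at 8 weeks and in old age. Members were all genes of the deposited tables whose symbol is Psma, Psmb, Psmc or Psmd followed by a digit, without the inducible catalytic subunits Psmb8, Psmb9 and Psmb10, and with Psme3, Psme4, Psmf1, Psmg1, Psmg2 and Pomp. This gave 41 of the 12791 genes. They were 7 alpha and 7 beta subunits of the core particle, 6 ATPases and 3 other subunits of the base of the regulatory particle, 8 lid subunits, 3 chaperones of each particle, 3 activators or inhibitors and Psmc3ip. The last is a factor of meiotic recombination, which the naming pattern admits although its product is not part of the proteasome. The testis subunit Psma8 and the thymus subunit Psmb11 were not among the genes tested.

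The 26S proteasome degrades proteins that carry ubiquitin chains. Its 20S core is a barrel of alpha and beta rings, in which Psmb5, Psmb6 and Psmb7 carry the chymotrypsin-like, caspase-like and trypsin-like sites. The 19S regulatory particle recognises the ubiquitin chain, removes it through Psmd14, and unfolds the substrate with its ATPase ring. Interferons induce Psmb8, Psmb9 and Psmb10, which replace the constitutive catalytic subunits in the immunoproteasome, and the transcription factor Nfe2l1 raises proteasome genes when proteasome activity is short.

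All mice were C57BL/6J wild type and were given PMSG, a gonadotropin that stimulates the ovarian follicles, at 5 or 7.5 units, 48 hours before dissection. Slices from one part of each uterine horn gave the RNA, so each library mixes epithelium, stroma, muscle and other cells. There were 7 libraries of 5-week, 7 of 8-week and 6 of aged uteri. Replicates 1 and 2 form an earlier set, in which the aged mice were 60 to 75 weeks old. Replicates 3 to 7 form a later set, in which they were 79 weeks old. Part of the libraries was read as single reads of 60 bp and part as paired reads of 150 bp, with 2 RNA kits in use, and the labels do not say which library had which. The set, any difference of instrument, read type or kit between the sets, and the age within the aged group cannot be told apart. Nothing in the labels links a library to a single animal, a gonadotropin dose or an estrous stage, so p-values measure the spread between these libraries.

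Total reads in the tables were 12204573 to 14448283 in the earlier set (6 libraries) and 19100690 to 30689439 in the later one (14 libraries). Each listed gene had at least 10 reads in every library. The headers of 15 of 20 columns name another sample than the one their file was attached to, and columns were taken as the sample in the header. Under the file record, 5w replicate 3 would be aged, 8w replicate 3 would be a 5-week library, and aged replicates 2 and 5 would change set. Counts of members called are given with and without them. Uterine markers were present, with all 10 stromal markers (among them Hoxa10, Hoxa11, Esr1 and Pgr), all 10 epithelial and all 8 smooth muscle markers in the tables.

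Most proteasome genes had lower CPM in aged than in 8-week uteri. Members of both rings of the core, of the lid and of the chaperones were called, and none of the base. Of 41 members, 12 fell and 0 rose at an adjusted p under 0.05 (limma on log2(CPM + 1), with the set as a covariate and Benjamini-Hochberg adjustment over all genes), where 8.53% of all genes fell and 8.64% rose. At an unadjusted p under 0.05 the numbers were 28 lower and 0 higher, where 15.0% of all genes were lower, and limma-voom called 9 lower and 0 higher, where it called 7.73% of all genes lower. The log2 fold change lay below 0 for 39 members, with a median of -0.45, against a median of 0.05 over all genes. In bulk tissue, fewer cells of a type and less RNA per cell cannot be told apart. Without 5w replicate 3 and 8w replicate 3 the number called was 5, and without these and aged replicates 2 and 5 it was 2. With columns attached by file it was 0, though 40 of 41 fold changes then lay below 0. The share of all genes called in these fits is not given, so the drops cannot be read as particular to the members. With the later set alone 0 were called, where 1.03% of all genes fell, and the median was -0.24.

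**Figure D1:**
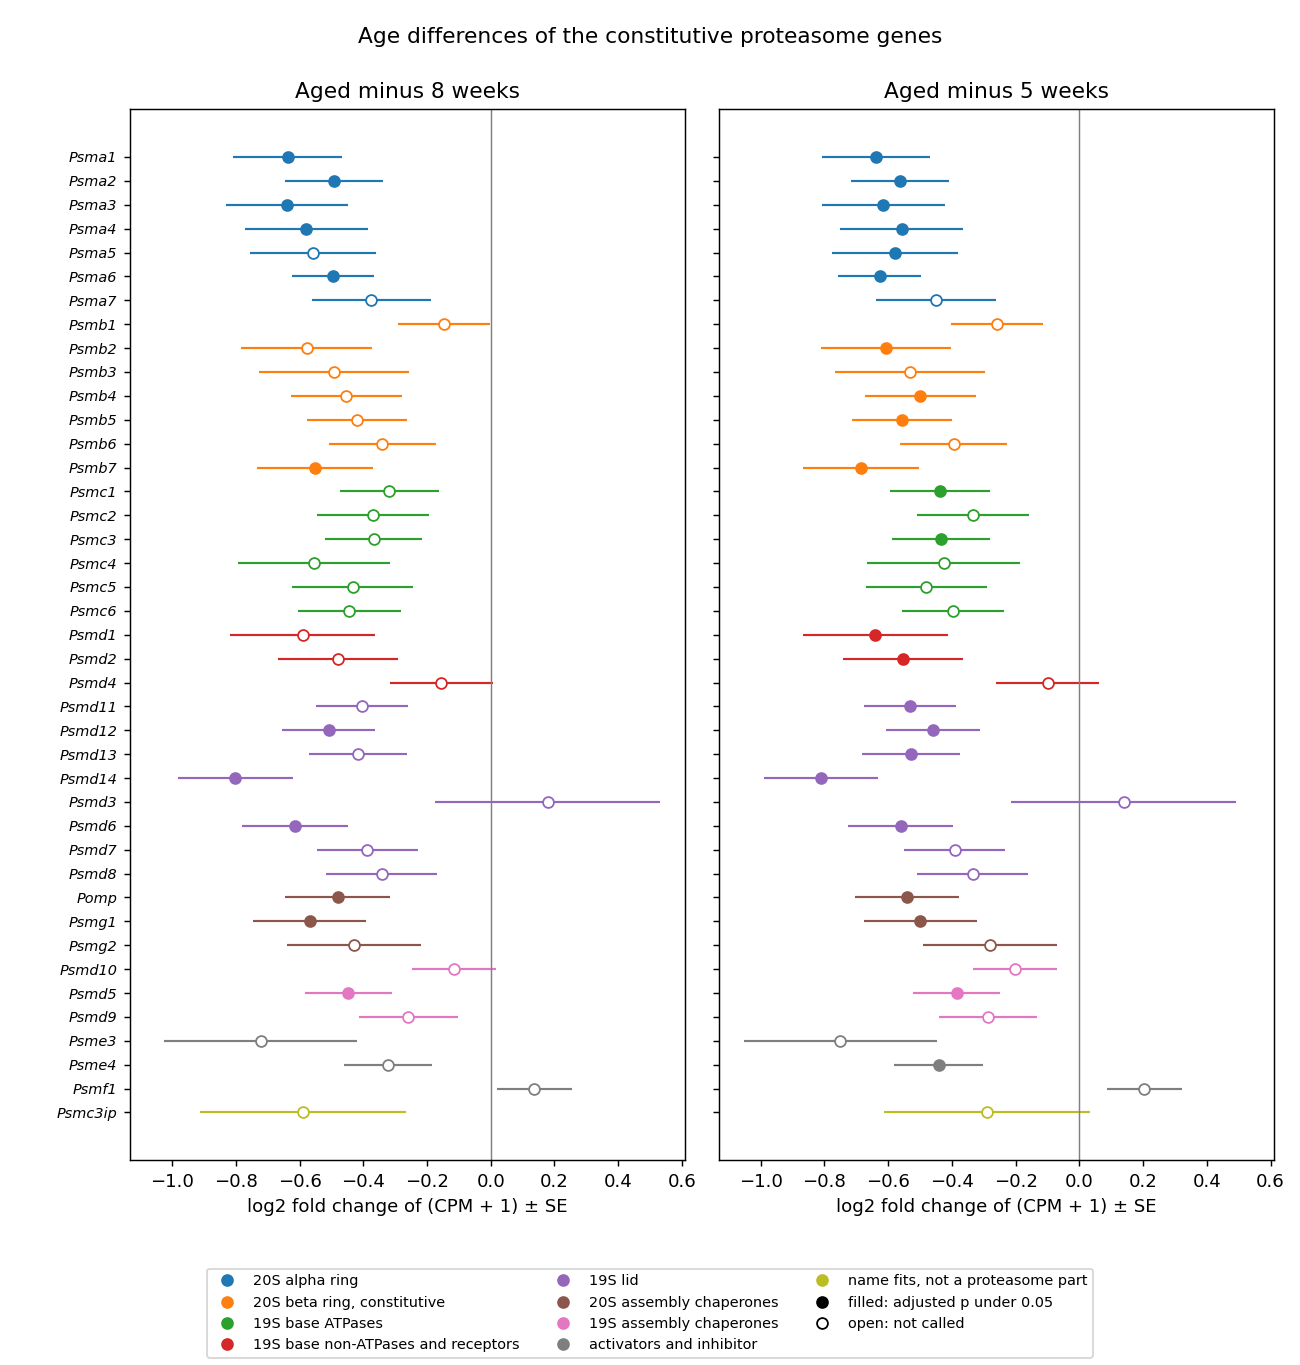
Log2 fold change of CPM + 1 with its standard error for each of the 41 genes, aged minus 8 weeks (left) and aged minus 5 weeks (right), coloured by class, with filled points at an adjusted p under 0.05. The points of 39 genes lie left of 0 in each panel, and Psmd3 and Psmf1 lie right of it, both open.

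The lid subunit Psmd14, the deubiquitinase that cuts the chain off a substrate before degradation (GRCm38 chr2:61711694-61800376), had the largest log2 fold change of the members. Its level ran from 89.7 to 141 CPM with a median of 125 at 5 weeks, from 87.0 to 156 CPM with a median of 117 at 8 weeks, and from 44.0 to 87.3 CPM with a median of 76.5 in aged uteri. Only aged replicate 6, at 87.3 CPM, reached the level of a younger library, 8w replicate 4, at 87.0 CPM. Psmd14 fell by 42.6% against 8 weeks, a log2 fold change of -0.80 ± 0.18 (SE, adjusted p = 0.00522). It remained called when any 1 library was left out, with adjusted p up to 0.0171. Within the later set alone the log2 fold change was -0.53 and within the earlier set -1.39.

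Psmd6, a structural lid subunit (chr14:14112174-14120984), ran from 112 to 176 CPM at 5 weeks (median 152), from 116 to 190 CPM at 8 weeks (median 140) and from 55.2 to 126 CPM in aged uteri (median 101). Aged replicates 1, 2 and 7 lay below every younger library, and the other 3 aged libraries lay among the lowest younger ones. The log2 fold change of Psmd6 was -0.61 ± 0.17 (adjusted p = 0.0156). The lid subunit Psmd12 was called too (-0.51 ± 0.15, adjusted p = 0.0226). Of the other lid subunits, Psmd7, Psmd8, Psmd11 and Psmd13 had fold changes from -0.42 to -0.34 that did not pass.

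Psmd3, a lid scaffold subunit, stood apart from the rest of the lid. Its level ran from 87.3 to 505 CPM at 5 weeks, from 94.2 to 592 CPM at 8 weeks and from 97.2 to 536 CPM in aged uteri. The younger libraries of the earlier set and both aged ones there lay between 391 and 592 CPM, and most of the later set lay under 200 CPM. The exceptions were 5w replicate 5, at 392 CPM, and aged replicate 7, at 536 CPM. The log2 fold change of Psmd3 was 0.18 ± 0.35 (adjusted p = 0.765).

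In the alpha ring, whose subunits form the gate of the core, 5 of 7 members fell against 8 weeks, and the median log2 fold change was -0.56. Psma1 (chr7:114264606-114276118) ran from 141 to 297 CPM at 5 weeks (median 221), from 161 to 257 CPM at 8 weeks (median 218) and from 103 to 164 CPM in aged uteri (median 146). Every aged library lay below the medians of both younger groups, while 5w replicate 5, at 141 CPM, and 8w replicate 7, at 161 CPM, lay within the aged range. The log2 fold change of Psma1 was -0.64 ± 0.17 (adjusted p = 0.0146). Psma6 (chr12:55384222-55418454) ran from 166 to 268 CPM at 5 weeks (median 199), from 138 to 278 CPM at 8 weeks (median 187) and from 115 to 157 CPM in aged uteri (median 137). Its aged libraries lay below every 5-week library, and 8w replicates 6 and 7 lay within the aged range. Psma6 fell by 0.49 ± 0.13 against 8 weeks (adjusted p = 0.0139).

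Psma2, Psma3 and Psma4 fell by 0.49, 0.64 and 0.58 on the log2 scale (adjusted p = 0.0327, 0.0274 and 0.0446). Psma3 and Psma4 differed far more between the sets than between ages. In Psma3 the younger libraries lay from 45.5 to 54.8 CPM in the earlier and from 194 to 404 CPM in the later set, and the aged ones at 21.2 and 32.3 CPM and from 140 to 243 CPM. In Psma4 they lay from 105 to 121 CPM and from 160 to 341 CPM, and the aged ones at 53.1 and 76.0 CPM and from 123 to 211 CPM. In both genes the aged libraries of the earlier set lay below all younger ones of that set, and those of the later set overlapped them. The fold changes of Psma5 (-0.56) and Psma7 (-0.38) did not pass.

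**Figure D2:**
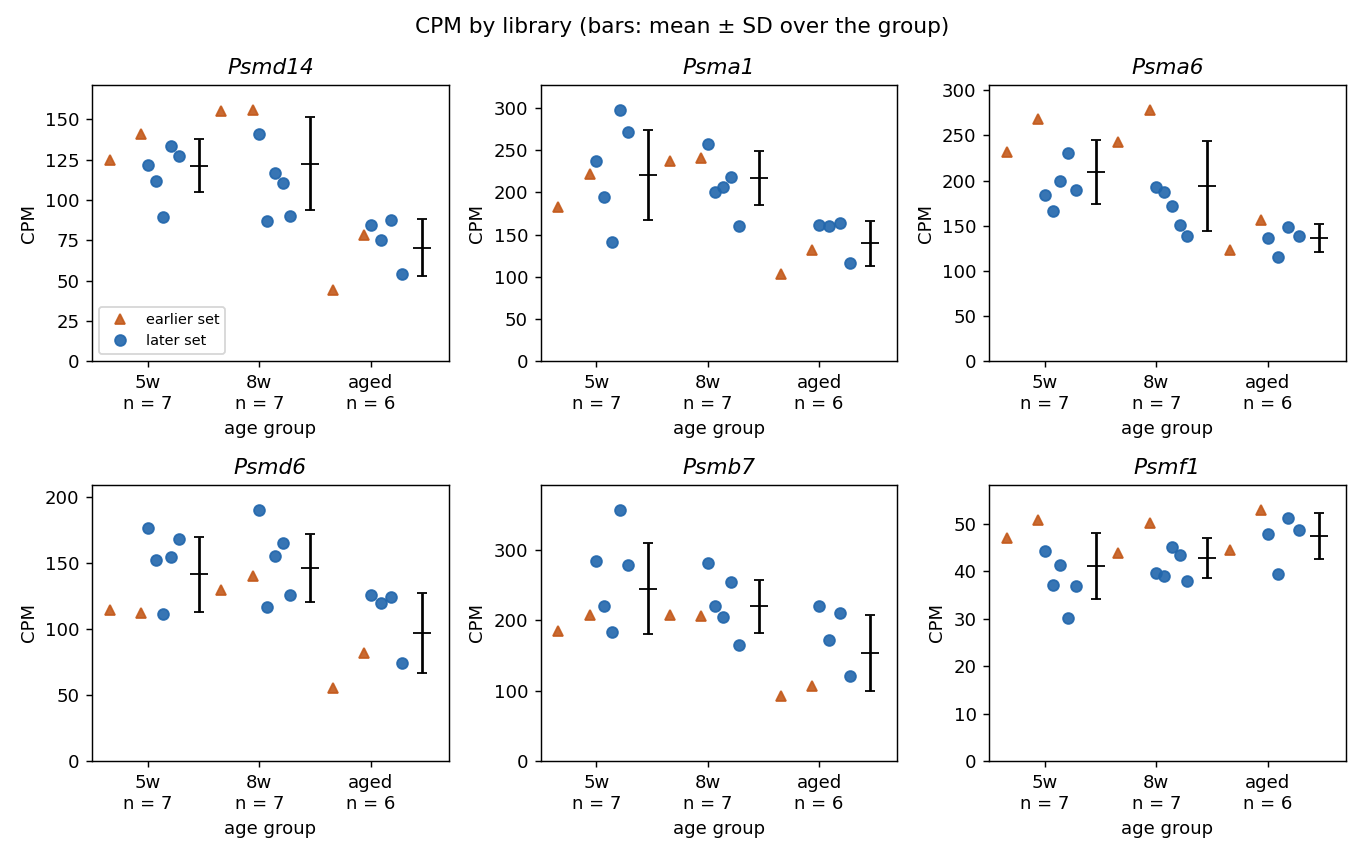
CPM of 6 genes by library, with age group on the x axis, triangles for the earlier and circles for the later set, and bars for the mean ± SD over the group. The aged libraries of Psmd14 sit between 44.0 and 87.3 CPM and all but aged replicate 6 lie below each younger library, while the groups of Psmf1 overlap.

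Among the beta subunits only the trypsin-like Psmb7 (chr2:38588036-38644087) passed against 8 weeks, 1 of 7 members, and the median log2 fold change was -0.45. Psmb7 ran from 183 to 357 CPM at 5 weeks (median 220), from 165 to 281 CPM at 8 weeks (median 207) and from 93.0 to 220 CPM in aged uteri (median 146). Aged replicates 1, 2 and 7, at 93.0, 107 and 121 CPM, lay below all younger libraries and the other 3 lay among them. It fell by 0.55 ± 0.18 (adjusted p = 0.0433). An exon of Nek6 shares 11.8% of the exon bases of Psmb7, and with libraries that do not keep strand the reads of the 2 genes cannot be told apart there.

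The chymotrypsin-like Psmb5 (chr14:54614119-54618022) ran from 96.6 to 213 CPM at 5 weeks (median 158), from 115 to 189 CPM at 8 weeks (median 131) and from 52.8 to 154 CPM in aged uteri (median 117). Within the earlier set both aged libraries lay below the younger ones, and within the later set the ages overlapped. Its log2 fold change was -0.42 ± 0.16 (adjusted p = 0.0707). The caspase-like Psmb6 (chr11:70525367-70527858) ran from 160 to 250 CPM, from 134 to 228 CPM and from 103 to 229 CPM at 5 weeks, 8 weeks and in aged uteri, with a log2 fold change of -0.34 ± 0.17 (adjusted p = 0.167). Aged replicate 6, at 229 CPM, was level with the highest 8-week library for Psmb6, and the other 5 aged libraries lay below the median of each younger group.

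The ring ATPases unfold substrates and open the gate of the core. Of the 6, 0 passed against 8 weeks with limma and 0 with limma-voom, though 5 did at an unadjusted p under 0.05 and all 6 fold changes lay below 0, from -0.55 to -0.32. The smallest p was that of Psmc6 (-0.44 ± 0.16, adjusted p = 0.0627). Of the other base subunits, the scaffolds Psmd1 (-0.59 ± 0.23, adjusted p = 0.0779) and Psmd2 (-0.48 ± 0.19, adjusted p = 0.0828) lay close to the threshold and the ubiquitin receptor Psmd4 did not (-0.15 ± 0.16). With a TMM scaling both Psmd1 and Psmd2 passed.

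Chaperones that build the particles fell as well. Psmg1, which pairs with Psmg2 to assemble the alpha ring, ran from 29.0 to 39.2 CPM at 5 weeks (median 34.1), from 24.9 to 47.0 CPM at 8 weeks (median 38.7) and from 15.1 to 29.96 CPM in aged uteri (median 25.3). Its log2 fold change against 8 weeks was -0.57 ± 0.18 (adjusted p = 0.0327). Pomp, the maturation factor of the core, fell by 0.48 ± 0.16 (adjusted p = 0.0480), and Psmd5, a chaperone of the base, by 0.45 ± 0.14 (adjusted p = 0.0305). Psmg2 (-0.43), Psmd9 (-0.26) and Psmd10 (-0.11), also chaperones, did not pass. The nuclear activator Psme3 had a fold change of -0.72 ± 0.30 that did not pass (adjusted p = 0.105), with libraries of the same age that differed several fold, from 36.0 to 295 CPM at 8 weeks. The inhibitor Psmf1 ran from 30.2 to 50.8 CPM, from 38.0 to 50.1 CPM and from 39.3 to 52.9 CPM in the 3 ages, with a log2 fold change of 0.14 ± 0.12 (adjusted p = 0.448).

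Leaving out 1 library changed several of these calls (adjusted p from limma). Psmd14, Psma1, Psma6 and Psmd6 remained called whichever library was left out, and each of the other 8 lost its call without at least 4 of them. Psmd12 lost it without 8w replicates 1 or 2 or aged replicates 1 or 2 (adjusted p up to 0.0688), Psma3 without 8w replicates 1, 2 or 3 or aged replicates 1 or 7 (up to 0.0814) and Psma2 without these or aged replicate 2 (up to 0.0928). Psmd5 lost it without 8w replicates 1, 2, 3 or 5 or aged replicates 1 or 7 (up to 0.0874), and Psmg1 without the same 8-week libraries or aged replicates 1 or 2 (up to 0.0940). Psmb7, Psma4 and Pomp lost it without any of 10, 11 and 15 libraries (up to 0.114, 0.119 and 0.120), in each case with 8w replicates 1, 2, 3 and 6, aged replicates 1, 2 and 7 and 5w replicates 1, 2 and 7 among them. The number of members called against 8 weeks was 4 without 8w replicate 1, 4 without 8w replicate 2, 5 without 8w replicate 3, 4 without aged replicate 1, 6 without aged replicate 2 and 21 without aged replicate 6. In every one of these fits 39 or 40 members had a fold change below 0. The share of all genes called in them is not given.

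Against 5 weeks, 23 of 41 members fell and 0 rose, where 9.41% of all genes fell and 12.7% rose. The aged libraries are those of the comparison with 8 weeks, so the 2 comparisons are not independent. At an unadjusted p under 0.05 there were 30 lower and 0 higher members, where 15.0% of all genes were lower, and limma-voom called 18 lower and 0 higher, where it called 9.07% of all genes lower. The median log2 fold change was -0.48, against 0.09 over all genes. By class, 6 of 7 alpha subunits, 4 of 7 beta subunits, 2 of 6 ATPases, 2 of 3 other base subunits, 5 of 8 lid subunits, 2 of 3 core chaperones, 1 of 3 base chaperones and 1 of 3 activators or inhibitors fell.

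Among members called, the largest changes were those of Psmd14 (-0.81 ± 0.18, adjusted p = 0.00354), Psmb7 (-0.69 ± 0.18, adjusted p = 0.0115), Psmd1 (-0.64 ± 0.23, adjusted p = 0.0487), Psma1 (-0.64 ± 0.17, adjusted p = 0.0116), Psma6 (-0.63 ± 0.13, adjusted p = 0.00230) and Psma3 (-0.61 ± 0.19, adjusted p = 0.0268). Of the catalytic subunits, Psmb5 passed (-0.56 ± 0.16, adjusted p = 0.0165) and Psmb6 did not (-0.39 ± 0.17, adjusted p = 0.0956). Psme4, the activator PA200, was the one activator that fell (-0.44 ± 0.14, adjusted p = 0.0284). Psmf1 had a log2 fold change of 0.20 ± 0.12 (adjusted p = 0.220), which was -0.01 in the earlier set alone.

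Psma1, Psma2, Psma6, Psmb5, Psmb7, Psmd11 and Psmd14 remained called against 5 weeks whichever library was left out. Psmd13 lost its call without aged replicate 1 (adjusted p = 0.0564), Psmd6 without aged replicates 1 or 7 (up to 0.0596), Pomp without aged replicates 1 or 2 (up to 0.0608), and the other 13 without 5 to 15 libraries, aged replicate 1 in every case. The number of members called was 12 without 5w replicate 1, 10 without 5w replicate 2, 15 without 5w replicate 3, 15 without 5w replicate 6, 10 without 5w replicate 7, 7 without aged replicate 1, 10 without aged replicate 2 and 11 without aged replicate 7. Without both columns that belong to another age by file it was 14, without the 4 that belong to another age or set it was 4, and with columns attached by file it was 2. The 2 were Psmd14 and Psma6, named here after their values were seen. For the fits in this paragraph too, the share of all genes called is not given.

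Between the younger ages no member was called. Of 41 members, 0 were called between 8 and 5 weeks (0% of all genes), 0 reached an unadjusted p under 0.05 (1.09% of all genes), and limma-voom called 0. Fold changes ran from -0.14 to 0.30 with a median of -0.03. The sets differed here, with 3 of 41 fold changes below 0 in the earlier set (median 0.16) and 37 of 41 in the later one (median -0.11), and 0 members called in each. The smallest p-values were those of Psma6 (-0.13 ± 0.12), Psmc3ip (0.30 ± 0.31) and the lid subunit Psmd11 (-0.13 ± 0.14), each at an adjusted p of 1.00 and within the spread of the libraries. The value of 0.30 was the highest and belonged to Psmc3ip, whose level per kilobase of exon was the lowest of all members.

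The sets differed in the size of the age difference. With the earlier set alone, 2 aged libraries against 2 of each younger age, 32 members fell against 8 weeks (13.2% of all genes) and 20 against 5 weeks (8.55%), with medians of -0.94 and -0.74. With the later set alone, 4 aged against 5 and 5 younger libraries, 0 members were called against 8 weeks (1.03% of all genes lower) and 0 against 5 weeks (2.21%). At an unadjusted p under 0.05 the later set had 4 and 12 members, where 14.5% and 20.6% of all genes reached it in either direction, and 38 of 41 fold changes lay below 0 in each comparison, with medians of -0.24 and -0.34. In the earlier set both aged libraries lay below all 4 younger ones for 39 of 41 members, as for 24.8% of all genes. The exceptions there were Psmc3ip and Psmf1. In the later set this held for 0 of 41 members (2.11% of all genes), and over all 20 libraries for 0 of 41 (0.571%).

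The interaction of set and age tested this difference itself. The aged effect, taken as aged minus the mean of 5 and 8 weeks, was less negative in the later set for 40 of 41 members, as for 49.9% of all genes, with a median difference of 0.50 on the log2 scale. No member was called by limma (0.0625% of all genes called higher and 0.367% lower), none by limma-voom, and 15 were higher at an unadjusted p under 0.05, as were 5.61% of all genes. The smallest adjusted p was 0.129, for the ATPase Psmc5 (0.98 ± 0.29). Next were the base scaffold Psmd2 (0.90 ± 0.30, adjusted p = 0.168) and Psmd12 (0.64 ± 0.22, adjusted p = 0.191). Psmc5 had log2 fold changes against 8 weeks of -1.22 in the earlier and -0.07 in the later set. With array quality weights 9 members were called, and with columns attached by file 8, with no share of all genes given for either.

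Summed over all members, the proteasome genes took 0.678% ± 0.0891 of the reads at 5 weeks (SD, n = 7), 0.657% ± 0.0768 at 8 weeks (n = 7) and 0.497% ± 0.105 in aged uteri (n = 6). Without the 4 columns of another age or set by file the means were 0.667%, 0.644% and 0.512%. In the earlier set the aged libraries stood at 0.353% and 0.433%, below the younger range of 0.610% to 0.733%. Those of the later set ran from 0.466% to 0.643% and overlapped the younger range of 0.516% to 0.822%. The aged uteri were spread widely. In aged replicates 1 and 5 all 41 members lay at or below the median of their set, in aged replicate 2 all but 1, while in aged replicate 6, 24 members lay above it. Among younger libraries, 8w replicate 7 and 5w replicate 1 had 6 and 10 members above the median of their set, and 8w replicate 2 had 41.

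**Figure D3:**
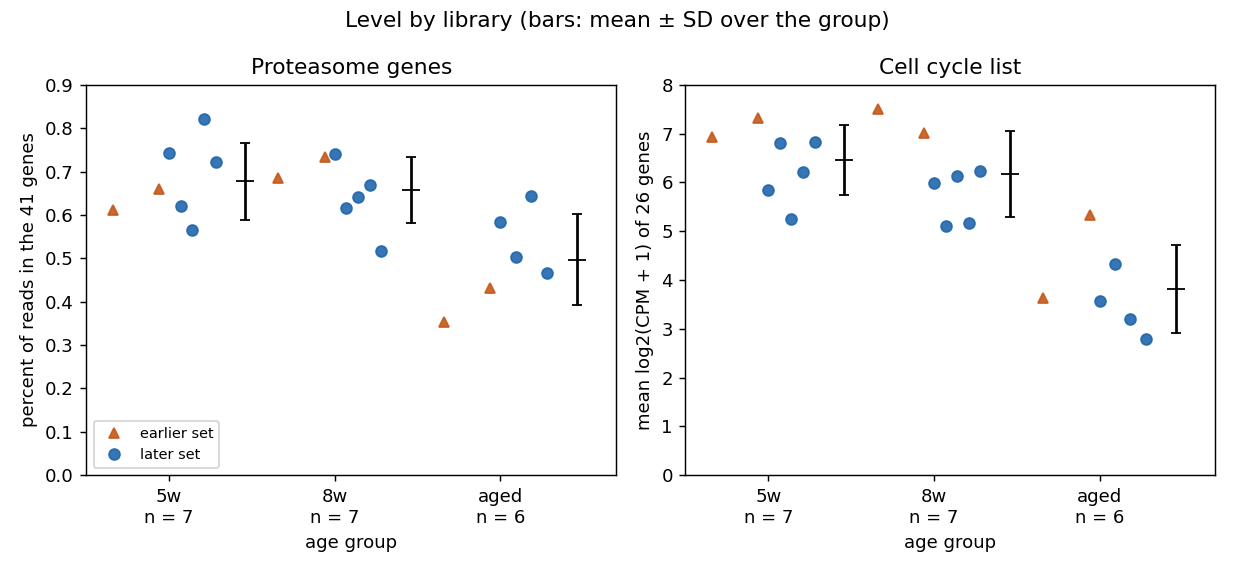
Percent of reads in the 41 proteasome genes (left) and mean log2(CPM + 1) of the 26 cell cycle genes (right) by library, with age group on the x axis, triangles for the earlier and circles for the later set, and bars for the mean ± SD over the group. The share in aged libraries runs from 0.353% to 0.643% and overlaps the younger groups only in the later set.

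Other cell lists were compared with 8 weeks, where 8.53% of all genes fell and 8.64% rose. Of 26 cell cycle genes, 25 fell against 8 weeks, with a median log2 fold change of -2.84, and their summed level ran from 1066 to 5416 CPM at 8 weeks and from 348 to 1347 CPM in aged uteri. Of 6 plasma cell markers in the tables, 4 were higher in aged uteri, with sums from 582 to 948 CPM at 8 weeks and from 1005 to 7548 CPM in aged uteri. Of 7 lymphatic vessel markers, 5 were higher, with sums from 73.9 to 720 CPM at 8 weeks and from 465 to 852 CPM in aged uteri. Of 4 red blood cell markers in the tables all 4 were higher, with sums from 16.1 to 63.1 CPM and from 51.8 to 281 CPM, and of 3 adipocyte markers 2 were higher, with sums from 22.3 to 771 CPM and from 46.9 to 1308 CPM. Against 5 weeks 0 of the 4 red blood cell and 1 of the 3 adipocyte markers were called. In the later set alone 0 red blood cell, adipocyte or lymphatic markers were called against 8 weeks. In that set 4 of 6 plasma cell markers were higher and 16 of 26 cell cycle genes lower. With all 20 libraries, 2 of 10 epithelial markers were higher, and of 10 stromal and 8 smooth muscle markers 0 were called. Of 6 macrophage and dendritic cell markers 1 was higher, as was 1 of 2 ovary markers. No blood vessel, mesothelium, oviduct or T, NK and B cell marker was called. None of the 4 neutrophil markers was in the tables. The earlier set alone differed, where 1922 of 12791 genes rose and 1691 fell against 8 weeks. There 0 of 10 epithelial markers were higher and 4 lower (median -0.68), and 2 of 10 stromal markers were higher and 1 lower. Of the 8 smooth muscle markers 1 was higher there, as were 2 of 5 blood vessel and 1 of 5 mesothelium markers. The part of cell makeup and cell division in the proteasome result was not tested. In the earlier set, the cell cycle list stood at a mean log2 of 3.64 and 5.34 in aged replicates 1 and 2. Their proteasome shares were 0.353% and 0.433%. Aged replicates 4, 5, 6 and 7 of the later set stood at 3.57, 4.32, 3.21 and 2.80. Shares in these were 0.585%, 0.503%, 0.643% and 0.466%. How the list and the share relate was not tested.

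No inducible subunit was called lower or higher in aged uteri. Of Psmb8, Psmb9, Psmb10 and the interferon-induced activator subunits Psme1 and Psme2, 0 of 5 were called in either comparison by limma or by limma-voom, with 0 and 1 at an unadjusted p under 0.05. Psmb8 ran from 52.4 to 81.0 CPM at 5 weeks, from 46.4 to 80.7 CPM at 8 weeks and from 44.7 to 109 CPM in aged uteri. Its aged libraries held both the highest and the lowest value. The log2 fold changes against 8 and 5 weeks were 0.14 and 0.21 for Psmb8, 0.24 and 0.35 for Psmb9, 0.08 and -0.12 for Psmb10, 0.12 and 0.12 for Psme1 and -0.36 and -0.50 for Psme2. Those of Psmb8 changed sign within the later set, at -0.04 and -0.01. Against 5 weeks, Psmb8 was called with array quality weights (0.41, adjusted p = 0.0185 with limma), and Psme2 on leaving out 5w replicate 4 (-0.59, adjusted p = 0.0476). Leaving out 5w replicate 5 did the same for Psme2 (-0.59, adjusted p = 0.0392).

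The ratio of a constitutive subunit to the inducible one that replaces it can be read within a library. The log2 difference of Psmb7 and Psmb10 was 1.37 ± 0.195 at 5 weeks (SD, n = 7), 1.43 ± 0.369 at 8 weeks (n = 7) and 0.790 ± 0.398 in aged uteri (n = 6). Taken within sets, the difference between aged uteri and 5 weeks was -0.56 and that to 8 weeks -0.63 (adjusted p = 0.0238 and 0.0417, two-sided exact permutation tests of 756 arrangements within sets, adjusted over 6 tests, smallest possible p 0.00132). For Psmb5 and Psmb8 the differences were -0.75 against 5 weeks and -0.56 against 8 weeks (exact permutation, adjusted p = 0.0417 and 0.132). For Psmb6 and Psmb9 they were -0.72 and -0.58 (exact permutation, adjusted p = 0.0397 and 0.165).

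These ratios rest on few libraries. The lowest log2 differences of Psmb5 and Psmb8 were those of aged replicates 1 and 2, at -0.74 and -0.49, both of the earlier set. These are differences of CPM, not per length, so they do not rank the levels of the 2 genes. Psmb5 was also higher in the later than in the earlier set (log2 fold change 0.70), and the part of the set in these values was not tested. Within the later set alone none of the 6 tests passed, and the values that had passed became -0.44 and -0.36 for Psmb7 and Psmb10, -0.42 for Psmb5 and Psmb8 and -0.31 for Psmb6 and Psmb9. The Psmb7 result against 5 weeks was lost without 5w replicate 4 (adjusted p = 0.0556), 5w replicate 5 (0.0556) or aged replicate 4 (0.0536), by exact permutation tests with fewer arrangements. The one against 8 weeks was lost without any of 8w replicates 1, 2, 3, 5, 6 or 7 or aged replicates 1, 4, 6 or 7, at adjusted p from 0.0536 to 0.0893. Both other pairs lost their result against 5 weeks without 5w replicates 1, 2, 4 or 5 or aged replicate 4, and Psmb5 also without 5w replicate 7 or aged replicates 1 or 6, at adjusted p from 0.05 to 0.0893. Without 5w replicate 3 and 8w replicate 3 the Psmb7 result against 8 weeks was -0.61 (exact permutation, adjusted p = 0.0714), and without these and aged replicates 2 and 5 none of the 6 tests passed.

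**Figure D4:**
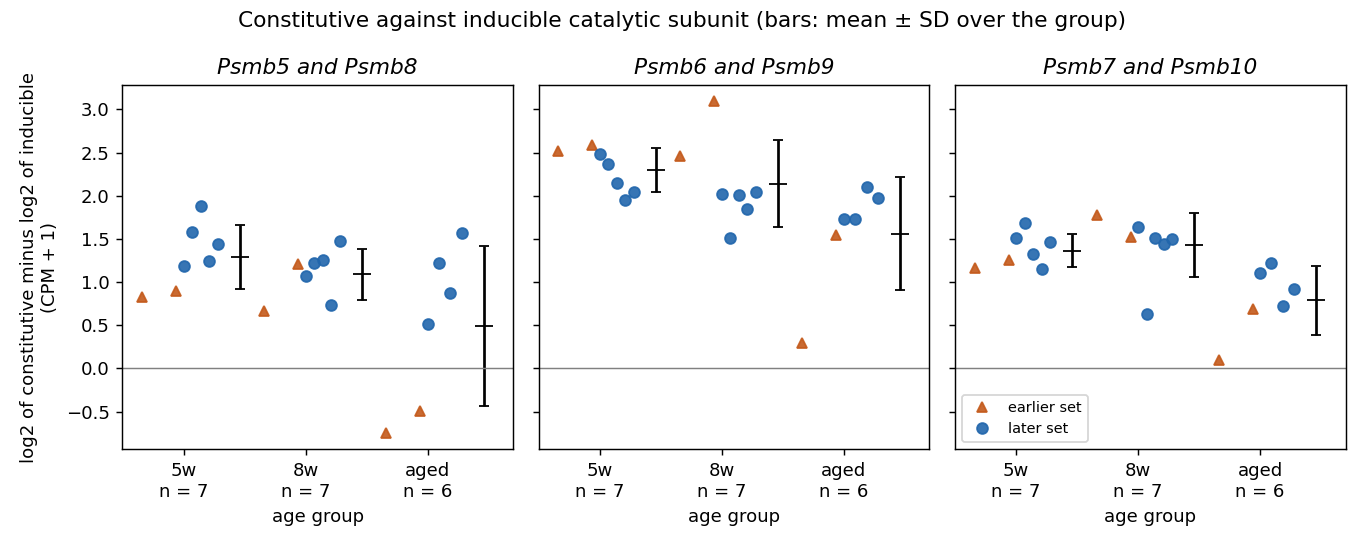
Log2 of CPM + 1 of a constitutive catalytic subunit minus that of its inducible counterpart, by library, with age group on the x axis, triangles for the earlier and circles for the later set, and bars for the mean ± SD over the group. Aged replicates 1 and 2 are the only points below 0 in the first panel, at -0.74 and -0.49.

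Genes that work with the proteasome but lie outside its naming pattern were read beside the members. Usp14, a deubiquitinase that docks on the base and trims chains there, ran from 71.0 to 126 CPM at 5 weeks, from 70.1 to 150 CPM at 8 weeks and from 46.6 to 69.9 CPM in aged uteri. Every aged library lay below every younger one, as for 0.571% of all genes, with aged replicate 2, at 69.9 CPM, next to 8w replicate 6, at 70.1 CPM. Usp14 fell by 0.86 ± 0.15 against 8 weeks (adjusted p = 0.000920) and by 0.92 ± 0.15 against 5 weeks (adjusted p = 0.000337). Uchl5, the other deubiquitinase of the base, fell by 0.83 ± 0.19 in both comparisons (adjusted p = 0.00527 and 0.00409). Txnl1, a thioredoxin-like protein bound to the 19S particle, fell by 0.54 ± 0.12 and 0.56 ± 0.12 (adjusted p = 0.00484 and 0.00289). Of 7 tested proteasome subunits and chaperones outside the naming pattern, Txnl1 was the only gene called in either comparison. Their median log2 fold changes were -0.22 and -0.24. Against 5 weeks Usp14, Uchl5 and Txnl1 passed within the later set alone, with fold changes of -0.82, -0.76 and -0.54 (adjusted p = 0.0158, 0.0261 and 0.0332), where no member did. Against 8 weeks none of them passed there (adjusted p = 0.0768, 0.195 and 0.198), and against 5 weeks within the earlier set only Usp14 passed (adjusted p = 0.0216, 0.0544 and 0.0696). With columns attached by file Usp14 remained called against 8 weeks (-0.73, adjusted p = 0.0349), Uchl5 and Txnl1 did not (adjusted p = 0.0765 and 0.0702), and all 3 remained called against 5 weeks.

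The remaining lists gave mixed counts against 8 weeks. Of 10 genes of ubiquitin and its activation 3 fell, namely the activating enzyme Uba6 (-0.50) and the conjugating enzymes Ube2k (-0.55) and Ube2n (-0.56). Uba6 lost its call without any of 8w replicates 1, 2, 3, 5 or 7 or aged replicates 1, 4 or 6, and Ube2n without aged replicate 1 (adjusted p = 0.0509). In the list of the segregase VCP 1 of 12 fell (Derl2, -0.47) and 1 rose (Ubxn6, 0.63), and of 12 shuttles and deubiquitinases 2 fell, the pair named above. In the list of the cytosolic chaperonin and HSP90, which fold proteins rather than degrade them, 6 of 13 fell, with a median of -0.51. They include Cct8 (-0.70), Tcp1 (-0.66), Cct6a (-0.77) and Hsp90aa1 (-0.88), the last not without aged replicate 1 (adjusted p = 0.0529). With the later set alone, 0 of these 13 genes were called against 8 weeks (median -0.30), where 1.03% of all genes fell. That fit also called 0 genes of the ubiquitin, VCP and shuttle lists. The transcription factor Nfe2l1 had log2 fold changes of 0.52 ± 0.28 and 0.51 ± 0.28 (adjusted p = 0.206 and 0.191) and Nfe2l2 of -0.04 and -0.13, neither called. Without 5w replicate 5, Nfe2l1 was called higher against 5 weeks (0.74, adjusted p = 0.0218). Of 15 genes in their list 1 fell against 8 weeks, the heme oxygenase Hmox1 (-0.72, adjusted p = 0.0453), which lost its call without any 1 of 14 libraries (adjusted p up to 0.109). Calls on these lists moved with the libraries whose header and file differ. Without 5w replicate 3 and 8w replicate 3, Hmox1 and Uba6 were not called (adjusted p = 0.0626 and 0.0684), and without these and aged replicates 2 and 5, Ube2k, Ube2n and Hsp90aa1 were not called either (adjusted p = 0.0682, 0.0630 and 0.0643). With columns attached by file, the genes named here that had fallen were not called (adjusted p from 0.0558 for Derl2 to 0.549 for Hsp90aa1), and Ubxn6 was (0.57, adjusted p = 0.0318).

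Levels of the members were compared per kilobase of exon, as CPM divided by the union length of a gene's exons. The highest were Psmb5, at 150 ± 44.6 CPM per kilobase (SD over 20 libraries), the beta subunit Psmb2, at 149 ± 47.7, and Psma6, at 148 ± 38.4. They do not differ beyond their spread. Their order changed with the set. Psma6 was highest in the earlier set, at 176 ± 50.8 (n = 6), where Psmb5 stood at 105 ± 33.0, and Psmb5 was highest in the later set, at 170 ± 33.7 (n = 14), where Psma6 stood at 136 ± 25.5. The lowest were Psmc3ip, at 5.14 ± 2.24, the chaperone Psmd9, at 6.23 ± 1.2, and Psmf1, at 6.76 ± 0.912 CPM per kilobase. By class, the median level per kilobase was 97.7 for beta subunits, 82.1 for alpha subunits, 79.9 for ATPases, 56.5 for other base subunits, 43.4 for the lid, 24.1 for core chaperones, 12.9 for activators and inhibitor and 10.7 for base chaperones. By these medians over all 20 libraries the structural subunits of the core stood above the factors that build or cap it, alpha subunits only just. Medians by class within a set are not given, and the alpha subunits moved with the set. Psma4 and Psma5 stood at 40.4 and 23.5 CPM per kilobase in the earlier set and at 99.9 and 130 in the later one. Of the alpha subunits only Psma6 was lower in the later set. The order of the classes therefore cannot be read as holding within each set. With the longest transcript as length, Psmb4 was highest and Psmb5 eighth.

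The set of the libraries moved some members more than age did. Between the later and the earlier set 11 members were called higher and 6 lower, against 20.5% and 38.3% of all genes. The median over all genes was -0.20 here and 0.03 with TMM scaling, under which 17 members were higher and 4 lower. The share of all genes called between the sets with TMM scaling is not given, so the moved counts cannot be read as particular to the members. Psma3 (2.63 ± 0.17, adjusted p = 1.10e-10), Psma5 (2.39 ± 0.17, adjusted p = 8.22e-10) and Psmb3 (1.98 ± 0.21, adjusted p = 2.63e-07) had the smallest p and were higher in the later set. Psmd3 (-1.63 ± 0.31), Psme3 (-1.39 ± 0.27) and Psme4 (-0.93) were lower there. Psma5, for example, had 18.8 to 40.0 CPM in the earlier libraries and 83.6 to 271 CPM in the later ones, with no overlap.

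Several of these members have processed pseudogenes, reverse-copied sequences elsewhere in the genome that share long runs with the coding sequence. The share of 60-base words of the coding transcript that recur in an annotated pseudogene was 48.3% for Psma5, 47.0% for Psmb3, 44.0% for Psmb5, 21.7% for Psma3, 21.1% for Psmd2 and 20.1% for Psma4, and 0 for 27 members. A shared run of 60 coding bases is shown for 4 of the members that were higher in the later set, as the stretch a read of 60 bp could match in both places. Positions count from the first coding base, and the pseudogenes lie at chr6:31141979-31142663 (Gm13835), chr4:135715868-135716598 (Gm12989), chr16:21896506-21897116 (AC114990.1) and chr7:3181093-3181888 (Gm3375) on GRCm38.
Psma3, bases 104 to 163, also in Gm13835: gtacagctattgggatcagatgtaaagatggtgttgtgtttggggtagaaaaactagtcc
Psma5, bases 26 to 85, also in Gm12989: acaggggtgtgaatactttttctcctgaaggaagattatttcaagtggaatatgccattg
Psmb3, bases 1 to 60, also in AC114990.1: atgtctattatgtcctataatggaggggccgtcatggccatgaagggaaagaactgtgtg
Psmb5, bases 7 to 66, also in Gm3375: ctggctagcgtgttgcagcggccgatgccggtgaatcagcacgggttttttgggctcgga

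Of the 6 members with at least 20% of such words, 5 were higher in the later set and 0 lower, with a median of 1.62 on the log2 scale, and the exception, Psmd2, had -0.26 (adjusted p = 0.182). Of the other 35, 6 were higher and 6 lower, with a median of 0.06. Which reads were counted where a read matched 2 places was not given in the sources used. The part of shared sequence in the set difference was not tested. The age differences above were fitted with the set as a covariate.

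**Figure D5:**
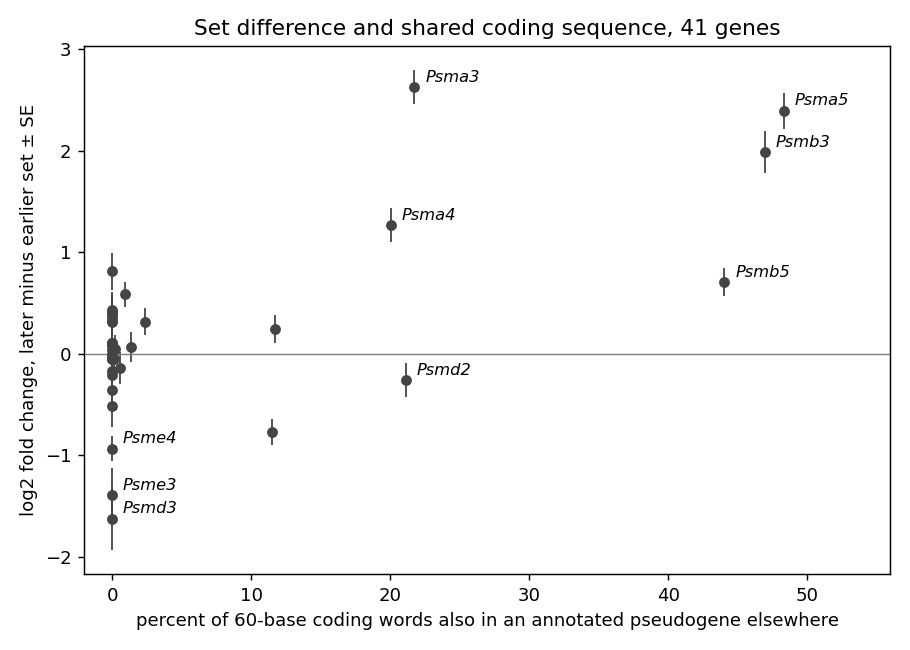
Log2 fold change between the later and the earlier set with its standard error against the percent of 60-base words of the coding transcript that also occur in an annotated pseudogene, 1 point per gene. Psma3, Psma5, Psmb3, Psma4 and Psmb5 lie above 0 at 20% or more, Psmd2 lies at -0.26, and the 27 genes with no such word span from Psmd3, at -1.63, to Psmg2, at 0.81.

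Promoters of the members were read from RefSeq (GRCm38.p6), from 250 bases before to 50 after the start site, since the members moved together. A window was found for 34 of 41. The letters CCGGAAG, the core bound by ETS factors, occurred on either strand in 15 of 34 members (44.1%), against 19.9% of all tested genes with a window and, per window, 44.4% of 36 against 8.86% of 32851. The core of the antioxidant response element, TGACNNNGC, bound by Nfe2l1 and Nfe2l2, occurred in 6 of 34, against 17.0% of tested genes, and CCAAT in 13 of 34, against 42.75%. The box of nuclear respiratory factor 1 occurred in 2 of 34, against 2.26% of tested genes. None of these strings contains another. The stretches below lie outside annotated exons, on the strand of the gene, and hold a core in capitals, as CCGGAAG or its reverse complement CTTCCGG, or as TGACNNNGC in the last. They belong to members called in at least 1 comparison and to Psmb6, a catalytic subunit whose response element core lies outside annotated exons (that of Psmb5 is not shown). Psma6 has 2 windows, and its stretch lies in the one at a downstream start site (chr12:55398575-55398874), within the gene. The window at the start of the gene (chr12:55383972-55384271) holds CCAAT and no ETS core, so Psma6 is counted through the downstream window.
Psma6, chr12:55398672-55398722, plus strand: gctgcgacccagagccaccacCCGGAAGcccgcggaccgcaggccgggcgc
Psmg1, chr16:95991000-95991050, minus strand: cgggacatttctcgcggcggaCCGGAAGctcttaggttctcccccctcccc
Psmd11, chr11:80428583-80428614, plus strand: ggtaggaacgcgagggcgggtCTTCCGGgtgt
Psmd2, chr16:20651605-20651651, plus strand: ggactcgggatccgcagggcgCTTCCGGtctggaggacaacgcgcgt
Psmb6, chr11:70525327-70525356, plus strand: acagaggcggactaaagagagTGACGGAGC

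Members with and without the ETS core had similar counts. Of 15 with it, 5 fell against 8 weeks, with a median of -0.48, and of 19 without it 6 fell, with a median of -0.45. Against 5 weeks 10 of 15 and 10 of 19 fell, with medians of -0.50 and -0.50. Of 6 members with the antioxidant response core, 1 fell against 8 weeks, with a median of -0.38, and of 28 without it 10 fell, with a median of -0.49. A match describes the letters of these windows and no binding was measured.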

How the data were processed

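RNA from slices of whole uterus was made into cDNA libraries with a kit that does not keep strand, per the labels' protocols. The authors deposited CPM (gene counts scaled to library size) per gene and library. fastp, STAR, featureCounts, edgeR and GRCm38 are named per the submitters' processing notes, with no version, role or strand setting given. Of 21 files 1 held no values, and aged replicate 3 was not analysed here. Every CPM was a whole multiple of 1 read (within 1e-06), so total reads could be recomputed.

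log2(CPM + 1) was fitted with limma 3.58.1 (R 4.3.3, empirical Bayes with a mean trend) over all 12791 genes and 20 libraries, with age and set as terms. P-values were Benjamini-Hochberg adjusted over all genes and called under 0.05. The difference of age effects between sets came from an interaction model. The planned count tests were replaced by limma-voom on recomputed reads, added after seeing the data. Replicate numbers did not pair libraries: 4 of 19 same-number pairs correlated above 0.1. Scripts were tested on simulated data. Exon positions came from GENCODE M21 on GRCm38.

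The members, lists and tests were chosen with earlier results of these data known. Members named with values were the catalytic subunits, the 6 largest called changes per age comparison (3 smallest p where fewer than 3 were called), the smallest p per class, the 3 smallest p of the set and interaction terms, the 3 highest and lowest levels per kilobase and, of other lists, at most 4 called genes each.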

Additional observations from a re-analysis of the deposited data

Results flagged for a closer look

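In the 7 libraries of 5-week uteri, Psmd12 stood at 92.8 CPM in 5w replicate 5 and between 113 and 125 CPM in the other 6, a gap large for the range of the group. It was 1 of 75 groups of values checked in this way, and chance alone gives about 1 in 20. The same library had 11 of 41 members above the median of its set.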

How the results depend on the processing

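The fold change of at least 38 of 41 members lay below 0 in both aged comparisons under every alternative run, while the number called moved. Against 8 weeks (12 called) and 5 weeks (23 called) the numbers were 2 and 7 with no set term, 0 and 0 with the later set only, 32 and 20 with the earlier set only, 0 and 2 with columns attached by file, 6 and 12 with the replicate block, 5 and 14 without columns of another age by file, and 2 and 4 without those of another age or set. Array quality weights gave 23 against 8 weeks and quantile normalization gave 15 against 5 weeks. The cause of these moves was not tested. Fits that leave some libraries out also hold fewer libraries. The share of all genes that fell against 8 weeks moved too, from 8.53% to 1.03% with the later set only and 13.2% with the earlier set only. For most other alternatives it is not given, so a moved count cannot be read as particular to the members. The set difference (17 called) gave 7 with columns attached by file, and the interaction (0 called) gave 9 with array quality weights and 8 with columns attached by file. Leaving out each library in turn gave 4 to 21, 7 to 25, 13 to 21 and 0 to 0 called for aged against 8 weeks, aged against 5 weeks, the set and the interaction. TMM scaling, median centring, both other pseudocounts (0.1 and 5), no trend, a mean CPM of at least 10 and limma-voom kept all counts within 1.5 times. In the pairing check, correlations of same-numbered libraries ran from -0.509 to 0.335, and 4 of 20 libraries correlated best with their own number.

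Leaving out libraries gave ratios against 5 weeks from -0.91 to -0.64 (Psmb5 to Psmb8), -0.82 to -0.47 (Psmb6 to Psmb9) and -0.62 to -0.46 (Psmb7 to Psmb10), and against 8 weeks from -0.73 to -0.38, -0.70 to -0.29 and -0.77 to -0.50. In the later set only, they were -0.42, -0.31 and -0.44 against 5 weeks and -0.36 for Psmb7 to Psmb10 against 8 weeks. Without columns of another age by file Psmb7 to Psmb10 gave -0.61 against 8 weeks, and without those of another age or set the 3 gave -0.85, -0.77 and -0.67 against 5 weeks and the last -0.69 against 8 weeks, none of these passing.

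Among the genes followed one by one through the alternatives, signs turned only for values that were not called. Psmd3 and Psmd4 were not followed in this way, were not called in the main fit, and turned too. With the earlier set only, all 8 lid subunits, Psmd3 among them, lay below 0 in both comparisons. With the later set only, 2 of 3 other base subunits did, and Psmd4 lay above 0. Against 8 weeks these were Psmb8 (-0.035) and Psmb9 (-0.081) in the later set only, Psmb10 without 8w replicate 7 (-0.0076) or aged replicate 6 (-0.026), within a leave-one-out range up to 0.21, and Nfe2l2 with quantile normalization (0.015), array quality weights (0.13) or the later set only (0.0098), and without aged replicate 7 (0.0023), within a range down to -0.079. Against 5 weeks they were Psmc3ip (0.0052) and Psmb10 (0.027) with array quality weights, Psmf1 in the earlier set only (-0.0084), Psmb8 in the later set only (-0.0098) and Psmb10 without columns of another age or set by file (7.4e-05). With the longest transcript as length, Psmb2 stood at 208, Psmf1 at 11.4 and Psmd9 at 17.1 CPM per kilobase. edgeR and DESeq2 were not run, since a check of the deposited values did not accept the reads as recovered (the smallest value is 10 reads), and limma-voom on the recomputed reads rests on that recomputation. The tables hold no gene under 10 reads in a library, so rarer genes were not measured.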
